A study of Mus musculus with 48 samples.

Results

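Of the 53700 genes in the deposited table, 37 belong to the mitochondrial genome, chosen by a symbol that starts with mt-. They are 13 mRNA genes, 2 rRNA genes and 22 tRNA genes, and a library gave them between 9.55% and 28.3% of its assigned reads. The RNA came from the ventricles of 48 male C57BL/6 mice, 6 in each of 8 groups that form 4 lines. CBK mice carried floxed Bmal1 on both alleles and 1 copy of Cre recombinase under the MHCα (Myh6) promoter, and their littermates, BMAL1 FLOX, carried the floxed alleles without Cre. CEK mice carried floxed E4bp4 with the same Cre, and E4BP4 FLOX littermates had the floxed alleles alone. CBK/CEK mice carried both pairs of floxed alleles with Cre, and BMAL1/E4BP4 FLOX littermates carried them without it. Cre CON mice had the Cre transgene and no floxed gene, and their littermates were WT. The promoter limits Cre to heart muscle cells, whereas the RNA came from whole ventricle, which also holds fibroblasts, vessel and immune cells. Neither the age of the animals nor the time of day of collection is known here.

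Mitochondria keep a small circular genome of their own. Its mRNAs code for core subunits of the respiratory chain and ATP synthase, its rRNAs build the mitochondrial ribosome, and its tRNAs lie between them and are cut out of long transcripts that cover almost the whole circle on each strand. Everything that copies, transcribes, cuts and translates it comes from nuclear genes, among them the RNA polymerase Polrmt and the DNA-packaging factor Tfam. Heart muscle is among the tissues with the most mitochondria, and its mitochondrial RNA is abundant. BMAL1 is a transcription factor of the circadian clock, coded by Arntl in the annotation used for names, and E4BP4 is a clock-controlled repressor, coded by Nfil3.

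Nuclear chromosomes carry old copies of mitochondrial DNA, and a read that fits both places equally well cannot be assigned to either. The copies on mouse chromosome 1 are close to perfect. Gm28661 matched mt-Co2, a subunit of cytochrome c oxidase, in 681 of 681 aligned bases, Gm28439 matched mt-Nd4 in 876 of 876, and Gm29216 matched mt-Co1 in 482 of 483. The sequences below, from the GENCODE M21 annotation of build GRCm38, are shown because reads from such stretches may fit both places. The first pairs hold the only base that differs, in capitals, between a gene and its copy, and the line after them is a stretch that mt-Co2 and Gm28661 share letter for letter.
mt-Co1: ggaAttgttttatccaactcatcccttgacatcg
Gm29216: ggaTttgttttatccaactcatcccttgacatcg
mt-Nd3: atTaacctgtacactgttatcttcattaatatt
Gm28438: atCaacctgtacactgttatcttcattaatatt
mt-Co2 and Gm28661: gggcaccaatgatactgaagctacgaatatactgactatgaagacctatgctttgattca
Counted from 1 at the 5′ end of the mitochondrial gene, the differences are A1066T in mt-Co1 and T3C in mt-Nd3, with the mitochondrial base first.

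The share of a gene that lies in such copies differed widely among the 13 mRNAs. Of all windows of 100 bases along mt-Co2, 99.5% also occurred in another annotated transcript, as did 99.5% for mt-Atp6, 99.8% for mt-Co3, 97.6% for mt-Nd3 and 98.5% for mt-Nd4l. The figure was 60.8% for mt-Nd4, 30.8% for mt-Co1 and 3.20% for mt-Nd2. For mt-Nd1, mt-Nd5, mt-Nd6, mt-Cytb, mt-Atp8 and both rRNAs it was 0, in annotated transcripts only. Genes can also overlap within the mitochondrial genome itself. The stretches below are shown because the first codes for the end of mt-Atp8 and the start of mt-Atp6 at once, the next lies in both mt-Nd4l and mt-Nd4, and the last is the only mitochondrial tRNA gene with more than a few counts, mt-Tp for proline.
mt-Atp8 and mt-Atp6: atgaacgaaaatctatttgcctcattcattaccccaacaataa
mt-Nd4l and mt-Nd4: atgctaa
mt-Tp: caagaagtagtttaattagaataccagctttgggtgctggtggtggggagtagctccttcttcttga

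Counts fell into 2 classes that match that division only in part. The 7 mRNAs mt-Nd1, mt-Nd2, mt-Co1, mt-Nd4, mt-Nd5, mt-Nd6 and mt-Cytb had at least 10000 counts in every library, and the other 6 were below 10000 in every library and made up 0.00478% to 0.0786% of the mitochondrial mRNA counts. Per kilobase of gene, mt-Co1 averaged 39965 CPM (counts scaled to a common library size) over the 48 libraries and mt-Co2 averaged 18.3, a ratio of 2184, although both code for subunits of the same enzyme. The copy Gm28661 had a median of 312.5 counts per library, against 241 for mt-Co2. mt-Nd4, with 60.8% of its windows shared, was among the abundant genes. mt-Atp8, with no window of 100 bases shared with another annotated transcript, was among the low ones. Nuclear sequence outside annotated transcripts was not searched, so a copy of mt-Atp8 there would have been missed. The last 43 bases of mt-Atp8 also start mt-Atp6, a stretch too short to fill such a window. What part reads with several possible positions had in the low counts was not tested. mt-Atp8 (median 1 count) and mt-Nd4l (median 2) were too low to be tested at all.

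Among the abundant mRNAs, taken over full gene length, mt-Co1 of complex IV and mt-Cytb of complex III averaged above the complex I genes. Per kilobase, mt-Co1 was highest at 39965 CPM, with 14384 to 56180 over the libraries, followed by mt-Cytb of complex III at 36042. The complex I subunits followed with 29039 for mt-Nd1, 23274 for mt-Nd2, 15563 for mt-Nd6, 15189 for mt-Nd4 and 8632 for mt-Nd5, which was 4.63-fold below mt-Co1. Neighbours in this order overlap in their ranges over libraries. The lengths of mt-Co1 and mt-Nd4 include shared stretches, with 30.8% and 60.8% of their windows, so their levels per kilobase may be too low. The place of mt-Nd4 in this order, and with it an order by complex, is therefore not settled. mt-Nd6 lies on the opposite strand from the other mRNAs and faces mt-Nd5, and without knowledge of strand its reads cannot be told apart from antisense RNA of the other strand.

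The rRNAs were measured at 11664 CPM per kb for mt-Rnr2, the large-subunit rRNA, and 9248 for mt-Rnr1, the small-subunit rRNA. They moved together: a library held 1.55 to 2.94 counts of mt-Rnr2 for each count of mt-Rnr1, with a median of 2.11. Of the 22 tRNA genes, 11 had 0 counts in every library, 10 had at most 17 counts in a library and 243 in all, and mt-Tp had 138209, or 99.8% of the tRNA counts. A filter on low counts kept 14 of the 37 genes: both rRNAs, 11 mRNAs and mt-Tp.

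**Figure D1:**
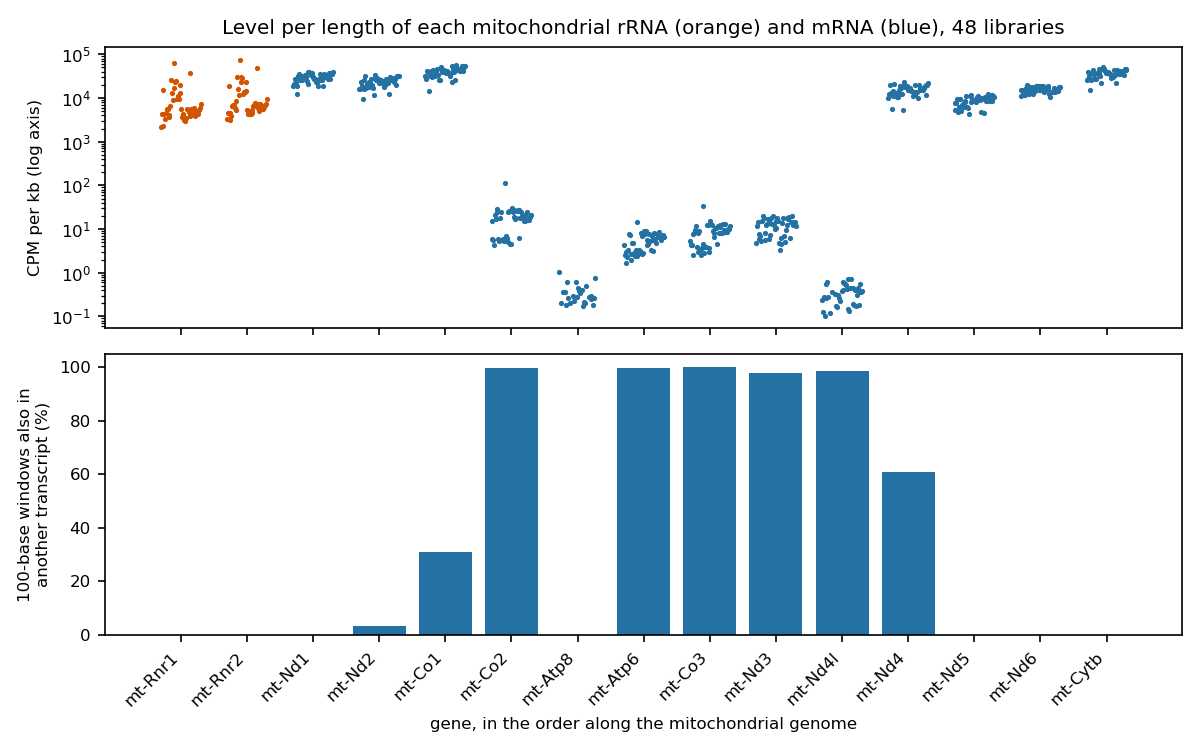
Level of the mitochondrial mRNA and rRNA genes in CPM per kb, on a log axis with 1 point per library (48 libraries, values of 0 not drawn), above the percentage of each gene's 100-base windows that also occur in another annotated transcript. The genes at 97.6% to 99.8% shared windows lie at or below 116 CPM per kb, and the abundant mRNAs at 4228 or more.

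Spread between animals differed as strongly as level. Within groups, the SD of the log2 level was 0.21 for mt-Nd6 and 0.24 for mt-Nd1, between 0.28 and 0.39 for the other abundant mRNAs, and 0.73 and 0.67 for mt-Rnr1 and mt-Rnr2. Taken relative to the summed mitochondrial mRNA of the same library, the SD was 0.062 for mt-Cytb, 0.086 for mt-Nd2 and 0.094 for mt-Nd1, but 0.21 for mt-Nd5 and 0.22 for mt-Nd6. On that scale mt-Cytb, mt-Nd2 and mt-Nd1 varied less than in CPM, and mt-Nd6 varied about as much.

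Libraries held 13128833 to 28407868 assigned counts, except WT replicate 1 with 126338949. Some stood apart. ENSMUSG00000119584, which has no name in the annotation used, took 13.3% of assigned counts in CBK replicate 3, 33.4% in CEK replicate 4 and 34.8% in BMAL1/E4BP4 FLOX replicate 6, against 0.534% to 1.19% in WT. CBK replicate 5 had the lowest mitochondrial share, 9.55%. The level of mt-Co2 also split the libraries, a split noticed in the data: it was 3.02 to 4.66 CPM in 15 of them, 10.3 to 20.3 in 32, and 79.1 in CEK replicate 5. The 15 were 3 CBK, 2 BMAL1 FLOX, 5 CEK, 4 E4BP4 FLOX and 1 BMAL1/E4BP4 FLOX library, and no CBK/CEK, Cre CON or WT library. The copy Gm28661 divided with it, at a median of 7.90 CPM in those 15 and 18.7 in the others. The labels name no batch, but the animal numbers in them went with the split. In the CBK and CBK/CEK lines the low libraries came from the highest-numbered animals. Among those animals only BMAL1/E4BP4 FLOX replicate 6 was not low. In the CEK line every low library had a lower animal number than every other library of the line. What lies behind this order was not tested. Cardiomyocyte markers were strong in every group (7 of 7 measured, 43371 to 79035 CPM summed), and skeletal muscle markers stayed below 1.48 CPM summed. The 3 atrial markers summed to a median of 1177 CPM in CEK and 613 in E4BP4 FLOX, and of 962 in CBK/CEK and 567 in BMAL1/E4BP4 FLOX. Their median log2 changes were 0.75 and 1.00, and none of the 3 passed the test in any line. Of the other marker lists, 1 of 7 cardiomyocyte and 1 of 5 endothelial markers were lower in CBK, where 4.35% of all genes were. In CBK/CEK 1 of 4 mural markers was higher, where 2.97% of all genes were. The summed atrial markers ran from 35.8 to 1525 CPM over all libraries, and their part in the mitochondrial results was not tested.

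Nfil3 was low in both groups labelled as E4bp4 knockouts, with 0.481 to 0.718 CPM in CEK, against 6.502 to 10.5 in E4BP4 FLOX, and 0.991 to 2.81 in CBK/CEK, against 6.996 to 11.8 in BMAL1/E4BP4 FLOX. Arntl was higher in the groups labelled as Bmal1 knockouts, with 5.78 to 12.6 CPM in CBK, against 0.579 to 1.5 in BMAL1 FLOX, and 10.9 to 13.3 in CBK/CEK, against 0.525 to 1.37 in BMAL1/E4BP4 FLOX. A count over the whole gene includes exons outside a deleted part, whose extent is not known here, so the level of Arntl does not check that deletion.

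The share of reads from the mitochondrial genome did not differ between Cre-carrying animals and littermates past the threshold of the test in any of the 4 lines. It was 17.6% ± 4.56 in CBK and 21.4% ± 2.94 in BMAL1 FLOX (SD, n = 6 each), a difference of -3.74 percentage points (two-sided exact permutation p = 0.119, adjusted p = 0.317 over 24 tests of 6 measures in 4 lines). CEK animals had 21.6% ± 3.95 and E4BP4 FLOX animals 25.1% ± 1.85, a difference of -3.50 points (exact p = 0.0801, adjusted p = 0.289). In CBK/CEK and BMAL1/E4BP4 FLOX it was 22.0% ± 1.48 and 21.2% ± 4.11 (exact p = 0.665, adjusted p = 0.797), and in Cre CON and WT 25.4% ± 1.47 and 26.2% ± 2.72 (exact p = 0.528, adjusted p = 0.750). The smallest p that 6 against 6 allows is 0.00216. In whole tissue, fewer muscle cells and less mitochondrial RNA per cell cannot be told apart, nor can a change of the share from one in the nuclear RNA it is measured against.

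Messenger and ribosomal RNA contributed unlike parts to that share. mRNA held 8.40% to 20.3% of assigned counts in CBK and 16.3% to 23.9% in BMAL1 FLOX, 10.02% to 24.3% in CEK and 18.0% to 25.4% in E4BP4 FLOX, 18.4% to 22.7% in CBK/CEK and 7.76% to 24.4% in BMAL1/E4BP4 FLOX, and 22.4% to 26.0% in Cre CON and 20.04% to 26.6% in WT. The rRNAs held a median of 1.08% in CBK and 1.61% in BMAL1 FLOX, 1.13% in CBK/CEK and 1.66% in BMAL1/E4BP4 FLOX, and 1.49% in Cre CON and 1.62% in WT. The CEK line stood above all of these, with a median of 5.28% in CEK (2.75% to 10.7%) and 3.13% in E4BP4 FLOX (2.64% to 5.71%).

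**Figure D2:**
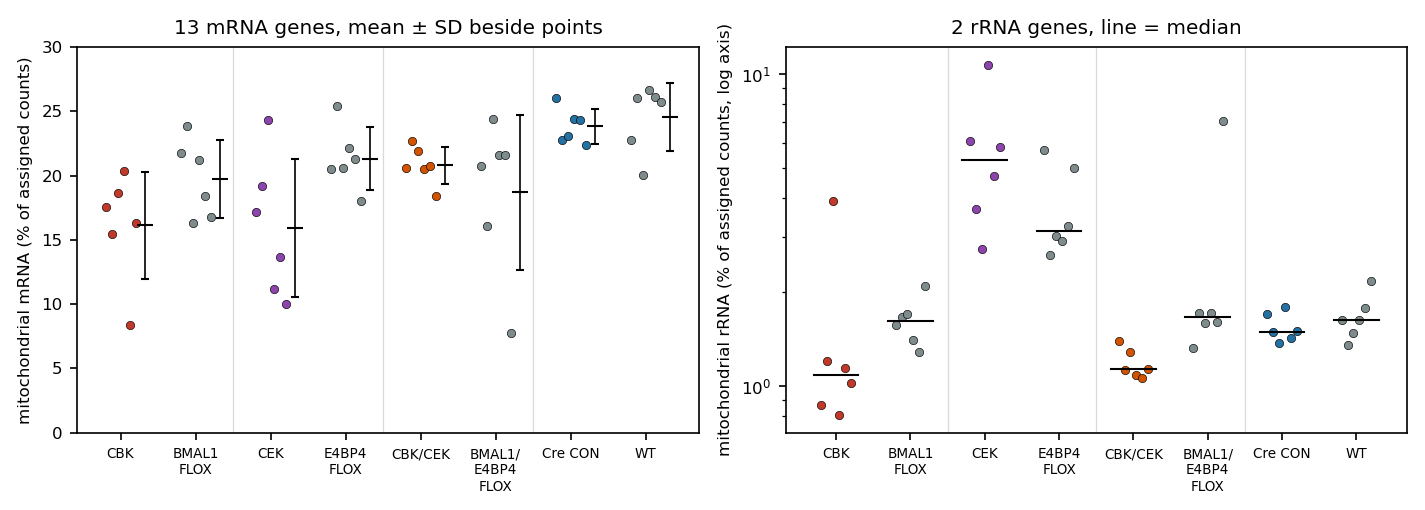
Left, percentage of assigned counts from mitochondrial mRNA in each library by group, with mean and SD. Right, the percentage from the 2 mitochondrial rRNAs on a log axis, with the group median. CBK replicate 5 is the lowest CBK library on the left at 8.40%, and the rRNA of BMAL1/E4BP4 FLOX replicate 6 stands at 7.07% where the group median is 1.66%.

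In the CBK line, mt-Nd1, a core membrane subunit of complex I, was the only mitochondrial gene called, and it was lower. Whether it changed more than the other mitochondrial mRNAs was not tested. It had 11582 CPM in the lowest CBK library, a median of 18908 and a highest of 26140, against 24706, 27997 and 33709 in BMAL1 FLOX. The groups met only through CBK replicate 3, and the other 5 CBK libraries lay below every BMAL1 FLOX library. The means were 19085 ± 4723 CPM in CBK and 28254 ± 3693 in BMAL1 FLOX, a log2 change of -0.57 (SE 0.13, adjusted p = 0.00223, edgeR quasi-likelihood test with Benjamini-Hochberg adjustment over 16623 genes). It was 1 of 14 mitochondrial genes tested, with none higher, while 4.35% of all genes tested were called lower, 4.05% higher and 8.4% in either direction.

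mt-Nd1 was a smaller part of the mitochondrial mRNA in CBK, a quantity that does not depend on the nuclear RNA of the library. It made up 11.6% to 13.9% of mitochondrial mRNA counts in CBK, with a median of 12.5%, against 14.2% to 16.1% and a median of 15.0% in BMAL1 FLOX, and the groups did not overlap. The same share was 11.4% to 14.2% in CBK/CEK against 12.6% to 16.6% in BMAL1/E4BP4 FLOX, 13.2% to 16.7% in CEK against 13.9% to 15.7% in E4BP4 FLOX, and 12.8% to 14.02% in Cre CON against 13.5% to 14.4% in WT. The shares of the other abundant mRNAs overlapped between CBK and BMAL1 FLOX. The mt-Nd1 shares come from the same counts as the call, were examined after mt-Nd1 had been seen to change and were not tested.

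The remaining abundant mRNAs had lower estimates in CBK that did not pass the test. mt-Nd2, the complex I gene next to mt-Nd1, had a median of 16608 CPM in CBK and 21255 in BMAL1 FLOX, a log2 change of -0.42 (SE 0.17, edgeR adjusted p = 0.134). mt-Nd6 stood at -0.31 (adjusted p = 0.0961), mt-Co1 at -0.27, mt-Cytb at -0.26, mt-Nd4 at -0.20 and mt-Nd5 at -0.11. All 7 were below 0, with a median of -0.27, where the median of all genes tested was within 0.01 of 0. Among the members with nuclear copies, the estimates of mt-Co2, mt-Atp6, mt-Co3 and mt-Nd3 ran from -0.78 to -0.48, and no adjusted p was below 0.05. Without adjustment, 5 of the 14 had a p under 0.05, as did 3115 of all 16623 genes.

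Summed over the 13 genes, mitochondrial mRNA had 83562 CPM in the lowest CBK library, a median of 147060 and a highest of 209227, against 154453, 186607 and 237789 in BMAL1 FLOX. The groups overlapped widely, and the log2 difference of -0.34 did not pass (exact permutation p = 0.119, adjusted p = 0.317). mt-Rnr1 and mt-Rnr2 had log2 changes of 0.07 and -0.09 with SEs of 0.46 and 0.43, since CBK replicate 3 had 29065 CPM of mt-Rnr2 and the other 5 had 4985 to 7265. Those 5 lay below every BMAL1 FLOX library, which held 8359 to 13281. The fit without CBK replicate 3 also called mt-Tp in CBK, at -0.52 (edgeR adjusted p = 0.0432), where it stood at -0.38 (adjusted p = 0.2) with all libraries. Without that library the summed rRNA level differed by -0.75 on the log2 scale (exact permutation p = 0.00433, adjusted p = 0.0519), and with it by -0.37 (adjusted p = 0.668).

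Fitted on the 12 libraries of the CBK line alone, the log2 change of mt-Nd1 was -0.56 with an adjusted p of 0.0541, and the call was lost. It held in the fits that left out libraries, at -0.66 without CBK replicate 3 (edgeR adjusted p = 0.000354) and -0.44 without CBK replicate 5 (adjusted p = 0.0167). Among libraries with mt-Co2 under 8 CPM it was -0.31 (3 CBK against 2 BMAL1 FLOX), and among the others -0.86 (3 against 4). With that split as a term in the fit it was -0.62 (edgeR adjusted p = 0.000439). The difference of the CBK change from the Cre CON change was -0.40 (SE 0.19, unadjusted p = 0.0356, edgeR adjusted p = 0.417), so a change beyond that of Cre alone was not called for mt-Nd1. No mitochondrial gene passed in that contrast, in which 2.47% of all genes did (1.25% higher and 1.22% lower).

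**Figure D3:**
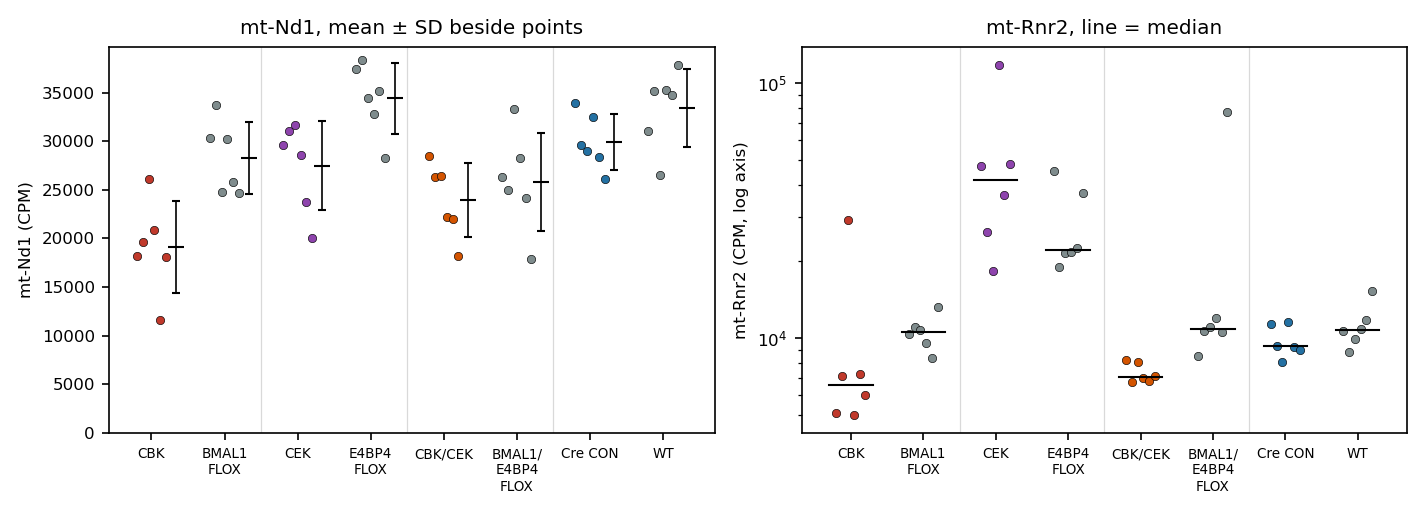
Left, mt-Nd1 in CPM in each library by group, with mean and SD. Right, mt-Rnr2 in CPM on a log axis, with the group median. In CBK 5 of 6 libraries lie below the lowest BMAL1 FLOX library for mt-Nd1, and in CBK/CEK all 6 lie below every BMAL1/E4BP4 FLOX library for mt-Rnr2.

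In the CEK line no mitochondrial gene passed, of 14 tested, where 0.307% of all genes did (0.156% higher and 0.15% lower). Without adjustment 5 of the 14 had a p under 0.05, as did 1892 of all 16623 genes, and DESeq2 called 0. The estimates of the abundant mRNAs were below 0 and those of the rRNAs above it. All 7 abundant mRNAs were below 0, with a median log2 change of -0.34 and a range of -0.48 for mt-Nd4 to -0.20 for mt-Nd6. mt-Nd2 had 12444 to 28270 CPM in CEK, median 22027, against 22720 to 34725 and median 28892 in E4BP4 FLOX, a log2 change of -0.45 (SE 0.17, edgeR adjusted p = 0.269). mt-Cytb, the catalytic subunit of complex III, had a median of 41379 CPM in CEK and 50922 in E4BP4 FLOX (log2 change -0.34, adjusted p = 0.355), and 4 of 6 CEK libraries lay below every littermate.

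The rRNA estimates were above 0 in CEK, with wide errors. mt-Rnr2 had 18307 to 118587 CPM in CEK, median 41937, against 19049 to 45506 and median 22230 in E4BP4 FLOX. CEK replicate 4 held the highest value, 3 CEK libraries lay above all littermates and 1 below them, and the log2 change was 0.81 (SE 0.44, edgeR adjusted p = 0.484). mt-Rnr1 stood at 0.76 (adjusted p = 0.56). There were 0.113 to 0.956 rRNA counts per mRNA count in CEK, median 0.351, against 0.104 to 0.278 and median 0.1495 in E4BP4 FLOX, a log2 difference of 1.00 (exact permutation p = 0.0844, adjusted p = 0.289). Without CEK replicate 4 that difference was 0.70. mt-Tp, which lies on the same strand as mt-Nd6, had a median of 120 CPM in CEK and 146 in E4BP4 FLOX (log2 change -0.32, adjusted p = 0.485).

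Of the mRNAs with nuclear copies, mt-Co3 and mt-Atp6 had log2 changes of 0.39 and 0.10 in CEK and mt-Nd3 -0.34, none with an adjusted p under 0.05. For mt-Co2, CEK replicate 5 had 79.1 CPM and the other 5 had at most 4.66, and the log2 change of 1.07 had an SE of 0.61. With mt-Co2 under 8 CPM in 5 CEK and 4 E4BP4 FLOX libraries, the summed mRNA level differed by -0.36 on the log2 scale within those, and by -0.57 within the remaining 1 and 2.

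In the CBK/CEK line the mRNAs were near their littermates and the large rRNA was called lower. mt-Rnr2 had 6736 to 8240 CPM in CBK/CEK, median 7028, against 8515 to 76960 and median 10837 in BMAL1/E4BP4 FLOX. The groups did not overlap, and 5 littermates lay between 8515 and 11989 while replicate 6 had 76960. The log2 change was -1.56 (SE 0.44, edgeR adjusted p = 0.0233). mt-Rnr2 was 1 of 14 members called lower and none was higher, where 2.89% of all genes were lower, 2.97% higher and 5.86% either. mt-Rnr1 had 2783 to 5312 CPM in CBK/CEK, against 3300 to 35177 in BMAL1/E4BP4 FLOX (log2 change -1.39, SE 0.47, adjusted p = 0.0782). For mt-Rnr1 the change was -0.27 without BMAL1/E4BP4 FLOX replicate 6 (edgeR adjusted p = 0.875), and -1.38 without CBK replicate 3 (adjusted p = 0.0409).

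That size rests on 1 library. Without BMAL1/E4BP4 FLOX replicate 6 the log2 change of mt-Rnr2 was -0.52 (edgeR adjusted p = 0.568) and the call was lost, although every CBK/CEK value remained below every littermate value. The call was also lost with a block for replicate number, with the line fitted alone (-1.57, adjusted p = 0.196) and with a term for animal number (-1.34, adjusted p = 0.0646). With the log2 share of ENSMUSG00000119584 as a covariate, a fit chosen after seeing the data, it was -0.75 (adjusted p = 0.000972). Its difference from the Cre CON change was -1.36 (SE 0.61, unadjusted p = 0.0323, edgeR adjusted p = 0.534), and no member passed in that contrast, in which 1.35% of all genes did (0.77% higher and 0.578% lower).

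The ratios of rRNA and of tRNA to mRNA had their lowest p-values in this line, and none of the 24 tests of measures passed. There were 0.0496 to 0.0676 rRNA counts per mRNA count in CBK/CEK, median 0.0556, against 0.0639 to 0.912 and median 0.0766 in BMAL1/E4BP4 FLOX, a log2 difference of -1.03 (exact permutation p = 0.00866, adjusted p = 0.0693), and -0.43 without replicate 6 of the littermates (exact p = 0.013, adjusted p = 0.104). Without knowledge of strand, reads at mt-Tp, as at mt-Nd6, cannot be told apart from RNA of the other strand. The ratio of tRNA to mRNA counts, which is that of mt-Tp, was 0.0464% to 0.0574% in CBK/CEK, median 0.0508%, against 0.0585% to 0.0771% and median 0.0650% in BMAL1/E4BP4 FLOX. These groups did not overlap, which gives the smallest p the design allows (log2 difference -0.38, exact permutation p = 0.00216, adjusted p = 0.0519). In Cre CON the same ratio was 0.0519% to 0.0636%, against 0.0577% to 0.0718% in WT (log2 difference -0.16, exact p = 0.0390, adjusted p = 0.187).

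The abundant mRNAs in CBK/CEK had log2 changes of -0.11 for mt-Nd1 to 0.26 for mt-Nd5, with 2 of 7 below 0, a median of 0.11 and no adjusted p under 0.05. mt-Nd5, the complex I subunit at the far end of the proton-pumping arm, had 14618 to 20409 CPM in CBK/CEK, median 17270, against 8160 to 18703 and median 16659 in BMAL1/E4BP4 FLOX. The interval of its change, -0.11 to 0.63, spans 0. For mt-Co1 the interval was -0.33 to 0.33. Summed mRNA had 159388 to 208161 CPM in CBK/CEK, median 196273, against 122959 to 247319 and median 188074 in BMAL1/E4BP4 FLOX (log2 difference 0.09, exact permutation p = 0.563, adjusted p = 0.750).

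Cre alone gave no call. In Cre CON against WT, 0 of 14 members passed in edgeR or DESeq2, none had an unadjusted p under 0.05, and 0.018% of all genes passed (0.00602% higher and 0.012% lower). The 7 abundant mRNAs were all below 0, from -0.19 for mt-Nd6 to -0.06 for mt-Nd5, with a median log2 change of -0.12. mt-Nd1 had 26073 to 33939 CPM in Cre CON, median 29275, against 26559 to 37870 and median 34956 in WT (log2 change -0.16, interval -0.42 to 0.10). mt-Nd6 had 7013 to 8678 CPM in Cre CON and 7416 to 9250 in WT, and 5 of 6 Cre CON libraries lay below every WT library (log2 change -0.19, adjusted p = 1). For CEK, the difference from the Cre CON change passed for no member, as for 0.00602% of all genes, and 0 members had an unadjusted p under 0.05.

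**Figure D4:**
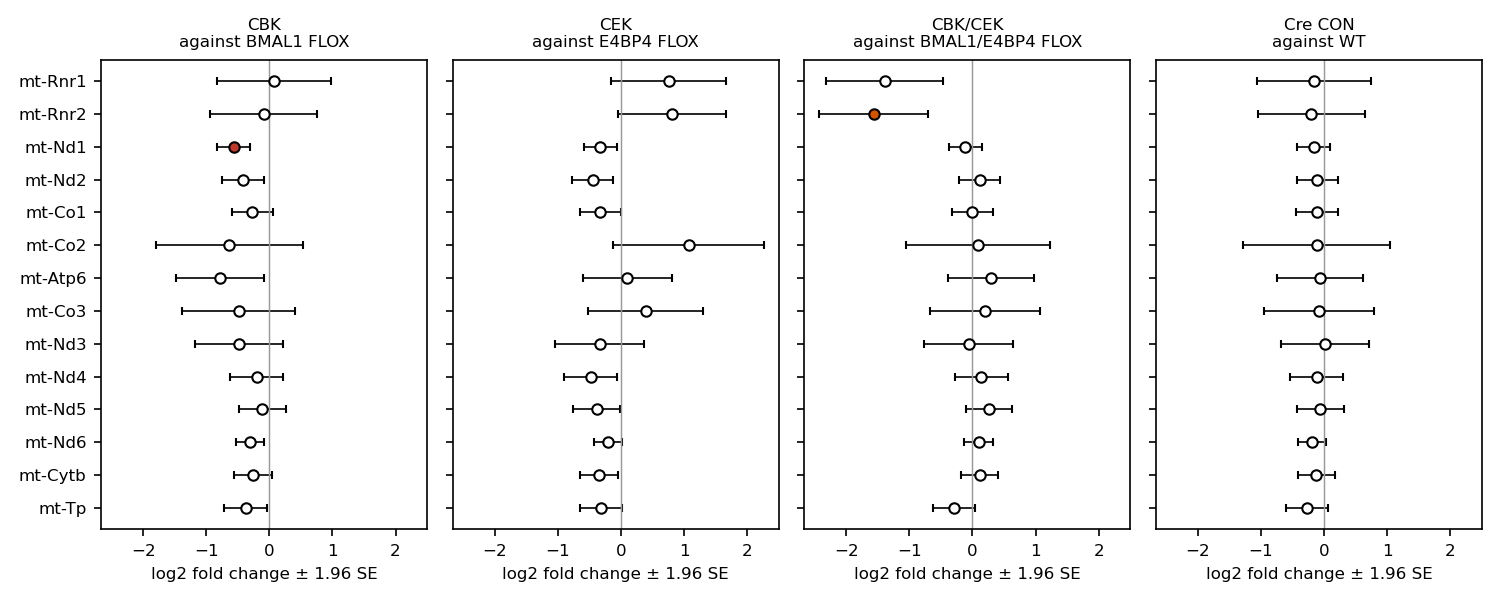
Log2 change of the 14 tested mitochondrial genes in each line, Cre-carrying animals over littermates, with bars for the 95% interval and filled points for an adjusted p under 0.05. The filled points are mt-Nd1 in CBK at -0.57 and mt-Rnr2 in CBK/CEK at -1.56, and the rRNAs and the genes with nuclear copies have the widest bars.

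mt-Nd6 is the mRNA gene of the opposite strand, and without knowledge of strand its counts cannot be told apart from antisense RNA. Its ratio to the summed mRNAs of the other strand was 4.04% to 7.99% in CBK and 3.96% to 5.41% in BMAL1 FLOX, 3.59% to 6.60% in CEK and 3.51% to 4.56% in E4BP4 FLOX, 3.90% to 5.00% in CBK/CEK and 3.48% to 5.94% in BMAL1/E4BP4 FLOX, and 2.85% to 3.87% in Cre CON and 3.02% to 4.21% in WT. The groups overlapped in every line. The log2 differences were 0.05, 0.19, 0.02 and -0.08 in the same order of lines, and the lowest exact permutation p was 0.225 (adjusted p = 0.468), in CEK.

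Libraries rich in mitochondrial rRNA were also rich in ENSMUSG00000119584. Over the 12 libraries of the CEK line, the log2 ratio of rRNA to mRNA and the log2 share of that gene had a Pearson r of 0.951 (permutation p = 1e-05, the smallest possible, adjusted p = 4e-05 over 4 lines) and a Spearman rho of 0.937 (permutation p = 3e-05, adjusted p = 0.00012), and r was 0.942 without the 2 libraries farthest from the median share. In the CBK line r was 0.849 (permutation p = 0.00025, adjusted p = 0.0005) and rho 0.783 (p = 0.00395, adjusted p = 0.0079), with r 0.719 (p = 0.0168) without the 2 farthest.

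The other lines differed. In the CBK/CEK line r was 0.909 (permutation p = 0.0121, adjusted p = 0.0161) but rho 0.434 (p = 0.161, adjusted p = 0.215), and without the 2 farthest libraries r was 0.621 (p = 0.0552), so the relation there rests on them. In the Cre line, where that gene took 0.534% to 1.19%, r was 0.286 (permutation p = 0.368) and rho 0.203 (p = 0.529). Each of these relations pools Cre-carrying animals and littermates, and the share of ENSMUSG00000119584 was 4.58% to 33.4% in CEK and 6.18% to 15.3% in E4BP4 FLOX. CEK replicate 4 and BMAL1/E4BP4 FLOX replicate 6 also had 22.9% and 27.4% of their records outside any annotated gene. The part of RNA quality or of library making in the rRNA values was not tested.

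**Figure D5:**
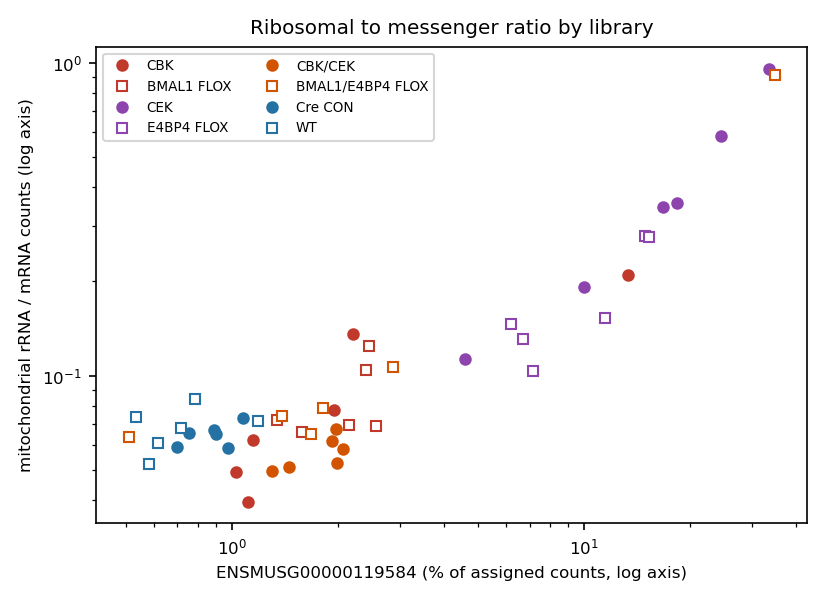
Ratio of mitochondrial rRNA to mRNA counts against the percentage of assigned counts in ENSMUSG00000119584, 1 point per library, both axes logarithmic, with filled symbols for Cre-carrying groups and open squares for littermates. The CEK line runs along a rising band (r = 0.951 on the log2 scale) and BMAL1/E4BP4 FLOX replicate 6 lies at 34.8% and 0.912.

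The nuclear genes that copy, transcribe, process and translate the mitochondrial genome changed in a few members. Of 75 listed genes, 73 were tested, and in CBK 1 was higher and 7 were lower, against 4.05% and 4.35% of all genes. Of the 10 regulators of mitochondrial biogenesis 4 were called lower, and all 10 estimates were below 0 (median log2 change -0.22). Of the other lists, 1 of 13 genes of mtDNA maintenance was lower, 1 of 28 for RNA processing and decay was higher and 2 were lower, and 0 of 9 transcription genes and 0 of 13 translation factors passed.

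Esrra, a nuclear receptor that drives genes of oxidative metabolism, had 82.7 to 160 CPM in CBK, median 146, against 163 to 193.3 and median 176 in BMAL1 FLOX, without overlap (log2 change -0.34, SE 0.10, edgeR adjusted p = 0.0201). Its relative Esrrb fell by 0.48 (adjusted p = 0.0142), Perm1, a muscle regulator that acts with these receptors, fell by 0.32 (adjusted p = 0.0182), and Gabpb1, a subunit of the factor NRF-2, fell by 0.62 on the log2 scale (adjusted p = 0.00406). Fastk, a member of the FASTK family of mitochondrial RNA-binding proteins of which one form stabilises mt-Nd6 RNA, had 184.7 to 232 CPM in CBK and 249 to 284 in BMAL1 FLOX, also without overlap (log2 change -0.35, SE 0.07, adjusted p = 0.000258). Mgme1, a nuclease of mtDNA replication, fell by 0.34 (adjusted p = 0.0200), and Mrm1, which methylates mt-Rnr2, fell by 0.26 (adjusted p = 0.0497). Ptcd3, a protein of the small mitochondrial ribosomal subunit, was higher, with 118 ± 24.5 CPM in CBK and 89.8 ± 7.45 in BMAL1 FLOX (SD, n = 6 each; log2 change 0.40, edgeR adjusted p = 0.00717).

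The number of nuclear genes called in CBK was 1 when that line was fitted alone, 5 without CBK replicate 3, 4 without CBK replicate 5, and 4 without the 4 libraries that stood apart in ENSMUSG00000119584 or mitochondrial share. The core machinery was measured close to littermates. Tfam had 45.4 ± 1.99 CPM in CBK and 46.6 ± 3.65 in BMAL1 FLOX (log2 change -0.04, SE 0.09, edgeR adjusted p = 0.892), and Polrmt 42.0 ± 4.36 and 37.7 ± 2.58 (log2 change 0.16, adjusted p = 0.416). Ppargc1a, the coactivator PGC-1α, had 53.8 ± 9.65 CPM in CBK and 63.3 ± 7.56 in BMAL1 FLOX (log2 change -0.23, adjusted p = 0.236).

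In CBK/CEK 1 of the 73 passed, Ptcd3, with 123.1 ± 14.7 CPM in CBK/CEK and 95.5 ± 14.2 in BMAL1/E4BP4 FLOX (SD, n = 6 each; log2 change 0.36, edgeR adjusted p = 0.0234), against 5.86% of all genes. Without BMAL1/E4BP4 FLOX replicate 6 none was called, and without CBK replicate 5, 2 were. Polrmt stood at 0.29 (adjusted p = 0.0702), Ppargc1a at -0.32 (adjusted p = 0.0876) and Tfam at -0.01 (adjusted p = 0.983). In CEK none passed in edgeR or DESeq2, and 9 of 73 had an unadjusted p under 0.05, where 1892 of all 16623 genes did. The tRNA-trimming nuclease Elac2 stood at -0.31 (edgeR adjusted p = 0.157). In Cre CON none passed in either tool and 1 had an unadjusted p under 0.05, where 607 of all 16623 genes did. Against the Cre CON change none of the 73 passed in any of the 3 contrasts, with 8, 2 and 4 at an unadjusted p under 0.05 for CBK, CEK and CBK/CEK, where 1739, 647 and 1307 of all 16623 genes had one, and DESeq2 called 0 in each.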

How the data were processed

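Ventricular RNA was extracted with the RNeasy Mini Plus kit and 1.3 ug of total RNA went into each SMARTER mRNA-Seq library, per the labels. The deposited values are raw counts of reads per gene, made by the authors on build GRCm39 with HTSeq 0.11.1, STAR 2.7.9a and bcl2fastq 2.18.0.12, per the submitters' processing notes. The annotation release, strandedness and treatment of reads with several positions are not stated in the sources at hand. The 5 HTSeq summary lines (14.9% to 21.7% of records not unique, 3.98% to 7.41% ambiguous) stayed out of totals. Identifiers were matched to GENCODE M21 (GRCm38) symbols, 52093 of 53700 (97.0%, holding 95.1% of counts). No coordinates are printed because that build differs from the files'.

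Genes kept by filterByExpr (16623, of which 14 mitochondrial) were TMM-normalised and fitted with edgeR 4.0.16 (robust quasi-likelihood) in R 4.3.3, as 8 group means over 48 libraries with 40 residual degrees of freedom. Benjamini-Hochberg adjustment ran over all kept genes, and a gene was called at an adjusted p under 0.05. Levels are CPM after TMM, per kilobase where genes are compared. Summed levels, shares and ratios were tested by two-sided exact permutation of 6 against 6 libraries, adjusted over 24 tests. Correlations used 100000 resamples. Sequence identity was computed with Biopython 1.88 and windows of 100 bases. The fit was tested on simulated data with 16623 genes: in the CBK comparison it recovered 61% of genes changed 2-fold and 40% of those changed 1.5-fold, with 6.48% of calls false. All columns matched a labelled library. The members, gene lists, named genes (every mitochondrial gene kept, and called members of the nuclear lists, at most 8 a line) and tests were chosen with earlier results of these data known. The fits and values for Tfam, Polrmt, Ppargc1a and Elac2, for the shares of mt-Nd1 and for the mt-Co2 split were chosen after their values were seen. Alternatives were RLE size factors, nuclear genes only for scaling, DESeq2 1.42.0, other filters, each line alone, a replicate block, a term for animal number and leaving out WT replicate 1. Chosen after seeing the data were fits without CBK replicates 3 or 5, CEK replicate 4, BMAL1/E4BP4 FLOX replicate 6 or all 4, with ENSMUSG00000119584 as a covariate, and with the mt-Co2 split.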

Additional observations from a re-analysis of the deposited data

Results flagged for a closer look

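Each of the 8 groups was examined for a value far from the others in several measures, and 9 of 64 sets of 6 values held one. The measures share libraries and counts, so the sets are not independent and were not compared with a rate by chance. The summed rRNA level was 43750 CPM in CBK replicate 3 (others 7120 to 11375), 178013 in CEK replicate 4 (others 27058 to 71709) and 112137 in BMAL1/E4BP4 FLOX replicate 6 (others 11815 to 16672). mt-Rnr2 alone picked out the same libraries, with 29065 CPM in CBK replicate 3, 118587 in CEK replicate 4 and 76960 in BMAL1/E4BP4 FLOX replicate 6. The ratio of rRNA to mRNA counts was 0.912 in BMAL1/E4BP4 FLOX replicate 6 (others 0.0639 to 0.107). These 3 libraries also held the highest shares of ENSMUSG00000119584 of their groups, 13.3%, 33.4% and 34.8%, and the part of that in the rRNA values was not tested beyond the correlations within lines.

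The summed mRNA level was lowest in CBK/CEK replicate 6, at 159388 CPM (others 190374 to 208161). The ratio of tRNA to mRNA counts was lowest in BMAL1 FLOX replicate 4, at 0.0378% (others 0.0636% to 0.0683%).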

How the results depend on the processing

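Of 92 values of the 6 measures under other settings none passed an adjusted p of 0.05, and 8 had the opposite sign: the mitochondrial share in CBK/CEK was -0.44 points with ENSMUSG00000119584 left out of the total, -0.72 for medians and -0.49 without BMAL1/E4BP4 FLOX replicate 6 (also without the 4 libraries), the mRNA level there was -0.016 without that library (also without the 4), and the mt-Nd6 ratio in CBK was -0.098 without CBK replicate 5 and -0.067 without the 4. Without CBK replicate 3 the mt-Nd6 ratio was 0.099. mt-Rnr2 in CBK was 0.0027 without CBK replicate 5 and -0.85 (edgeR adjusted p = 0.00576) without the 4.

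Over 16 other fits, 1 mitochondrial gene was called in CBK except for 0 with the line alone and 2 without the 4 libraries, with 1 to 2 over the fits that each left out 1 replicate (5 libraries in turn). mt-Nd1 ran from -0.66 to -0.44 (adjusted p 0.000354 to 0.0541). In CBK/CEK 0 were called with the line alone, 0 under the replicate block, 0 with the animal-number term and 0 without the 4, with 0 to 2 over fits without a replicate. mt-Rnr2 there ran from -1.57 to -0.52. CEK, Cre CON and the differences from Cre CON stayed at 0 in every fit run. Nuclear genes in CBK (8 called) came to 1 with the line alone and 4 without the 4, with 4 to 7 over fits without a replicate. In CBK/CEK (1 called) they came to 2 in DESeq2, 2 with the CPM filter, 0 with the line alone and 4 with the animal-number term, with 0 to 2 over fits without a replicate. The causes were not tested. Cre-carrying animals and littermates with the same replicate number deviated together weakly or not at all, with r from -0.17 to 0.25. Of these 24 pairs, 6 had r over 0.1 and 7 had their own number as best partner. In the CBK/CEK line 3 of 6 pairs were over 0.1, each with its own number as best partner. The main fit did not pair by replicate number, and whether same-numbered libraries were handled together was not tested. With the replicate block mt-Nd1 was -0.57 (edgeR adjusted p = 0.000419) and mt-Rnr2 in CBK/CEK -1.31 (adjusted p = 0.0784). Depth does not limit the abundant members, which had at least 10000 counts per library, and does limit mt-Atp8, mt-Nd4l and 21 tRNA genes.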

Other observations

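The mitochondrial ribosome and respiratory chain are built from nuclear and mitochondrial products together, and their nuclear members were set beside the mitochondrial ones. Of 77 tested ribosomal protein genes (Mrpl and Mrps), 1 was higher in CBK, where 4.05% of all genes were. This was Mrps23, with 197 to 372 CPM in CBK and 143 to 192 in BMAL1 FLOX, without overlap (log2 change 0.64, SE 0.11, edgeR adjusted p = 3.05e-05). Its change differed from that of Cre CON by 0.64 (adjusted p = 0.0118). The median log2 change of the list was 0.14 in CBK.

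Of 86 tested nuclear genes of the respiratory chain, 2 were lower in CBK and 1 in CBK/CEK, where 4.35% and 2.89% of all genes were. Sdhc, a membrane subunit of complex II, had 395 to 509 CPM in CBK and 516 to 664 in BMAL1 FLOX, without overlap (log2 change -0.33, SE 0.09, edgeR adjusted p = 0.00584). Cox6b2, known as the testis form of a complex IV subunit, was low throughout, with 0.637 ± 0.504 CPM in CBK and 3.22 ± 0.913 in BMAL1 FLOX (SD, n = 6 each; log2 change -2.33, edgeR adjusted p = 1.05e-06), and 0.814 ± 0.343 CPM in CBK/CEK and 2.03 ± 0.779 in BMAL1/E4BP4 FLOX (log2 change -1.29, adjusted p = 0.0105). In CBK its change differed from that of Cre CON by -2.17 (adjusted p = 0.00248). No member of either list passed in CEK or Cre CON. In Cre CON 83 of 86 respiratory chain genes and 73 of 77 ribosomal protein genes were below 0, with medians of -0.13 and -0.11, where the median of all genes was within 0.01 of 0. The same counts were 33 and 14 in CBK, 34 and 38 in CEK, and 69 and 41 in CBK/CEK. Genes of a list come from the same libraries and are not independent, and these counts were not tested.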
